A study of Mus musculus with 6 samples.

Results

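The genes described here are 7 that control whether bone matrix takes up mineral and how phosphate is handled: Alpl, Enpp1, Phospho1, Phex, Slc20a1, Slc20a2 and Fgf23. They were named for their roles and not for values in these data, though earlier results of these data were known. They are 7 of the 49943 genes with a place in the RefSeq annotation used. Chromatin accessibility had been measured by ATAC-seq, in which the Tn5 transposase inserts adapters into open chromatin, and each library was given as a list of peaks. Peaks of the 6 lists that shared 1 bp or more were merged into 89410 regions, and 51 of these touched the span of 1 of the 7 genes extended by 20 kb on either side. Alpl had 12 regions, Phex 11, Slc20a2 7, Slc20a1 6, and Enpp1, Phospho1 and Fgf23 had 5 each.

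The libraries came from an immortalized mouse osteoblast line whose Fam20c gene is floxed (OB Fam20c f/f, 3 libraries) and from the same line after infection with a Cre recombinase lentivirus (OB Fam20c KO, 3 libraries). Fam20c codes for the kinase that phosphorylates secreted proteins in the Golgi, and KO cells differed from f/f cells in having received the virus as well as in the deletion. Transposition was run on 50000 nuclei per library for 30 min at 37 °C. The labels do not say that replicates were separate cultures or clones, so the p-values below measure only the spread between these libraries, which may be technical.

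Bone mineral is calcium phosphate, and its growth is held back by pyrophosphate outside the cell. ENPP1 makes pyrophosphate from nucleotides, tissue-nonspecific alkaline phosphatase (Alpl) breaks it down and frees phosphate, and PHOSPHO1 frees phosphate from phospholipid head groups inside matrix vesicles. Slc20a1 and Slc20a2 code for PiT-1 and PiT-2, which carry phosphate with sodium into cells, while Fgf23 codes for a bone hormone that makes the kidney excrete phosphate, and Phex for a membrane protein whose loss raises FGF23 and leaves bone poorly mineralized.

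The lists held between 62781 and 74797 peaks, apart from KO replicate 3 with 32958, and any pair of lists shared at most 0.270% of the shorter one as identical peaks. KO replicate 3 therefore stands apart, and results are given with and without it. Sequencing depth could not be read from the lists, and the read totals given by the study, in which KO replicate 3 is not the lowest library, were not used here. The study does give that library the lowest rate of uniquely mapped reads and the lowest GC content of the 6. Whether these bear on its short list was not tested. At Fam20c itself a region over the start site had a peak in all 6 libraries, and peak presence there does not check the deletion. Within 1 kb of the start site, or of either end of the span where the table used gave no start, 6 of 8 osteoblast genes had a peak in all 6 libraries (Bglap and Ibsp had none in any), against 1 of 12 genes of blood, endothelium, cartilage, fat, epithelium and muscle, of which 8 had none in any library.

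The promoter sequences of 6 genes are shown because the peaks over them ranged from strong ones in every library to none. They are RefSeq windows of GRCm38.p6 from 250 bases before to 50 after the start site, written in the direction of the gene. Entries matched 6 of the 7 genes, 8 in all, with a second, inner start for Alpl and for Slc20a1; Slc20a2 had none. Capitals mark the letters of 6 motifs that were searched on both strands. These were TGANTCA for AP-1, ACCACA for RUNX, CAGCTG as a form of the E-box, TGACGTCA for CRE, TATAAA for the TATA box and CCAAT for the CCAAT box, and no match overlapped another of these here. Slc20a1 and Phospho1 come first as the promoters with strong peaks in every library, then Alpl and Fgf23 with weaker peaks, then Enpp1 with a weak peak in 1 f/f library and Phex with none.
Slc20a1 (first start, chr2:129198523-129198822, plus strand): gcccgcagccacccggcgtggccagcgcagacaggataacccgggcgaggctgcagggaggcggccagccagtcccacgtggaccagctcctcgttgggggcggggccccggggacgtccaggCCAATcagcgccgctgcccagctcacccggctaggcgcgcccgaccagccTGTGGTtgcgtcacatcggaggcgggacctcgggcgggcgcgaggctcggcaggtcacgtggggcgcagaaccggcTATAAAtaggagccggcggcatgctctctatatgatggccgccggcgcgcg
Phospho1 (chr11:95824250-95824549, plus strand): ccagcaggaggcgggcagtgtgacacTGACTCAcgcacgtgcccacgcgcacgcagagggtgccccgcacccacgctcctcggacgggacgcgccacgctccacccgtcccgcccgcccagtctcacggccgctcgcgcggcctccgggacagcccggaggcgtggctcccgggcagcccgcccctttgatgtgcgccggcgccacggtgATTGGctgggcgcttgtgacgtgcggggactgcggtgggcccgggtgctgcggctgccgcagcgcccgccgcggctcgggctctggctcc
Alpl (first start, chr4:137796335-137796634, minus strand): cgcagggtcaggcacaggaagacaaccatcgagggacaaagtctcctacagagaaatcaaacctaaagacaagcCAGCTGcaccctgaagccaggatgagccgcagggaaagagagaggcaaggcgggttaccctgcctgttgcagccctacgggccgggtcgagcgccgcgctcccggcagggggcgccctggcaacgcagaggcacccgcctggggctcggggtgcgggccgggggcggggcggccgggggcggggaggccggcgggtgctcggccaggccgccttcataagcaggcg
Fgf23 (chr6:127072652-127072951, plus strand): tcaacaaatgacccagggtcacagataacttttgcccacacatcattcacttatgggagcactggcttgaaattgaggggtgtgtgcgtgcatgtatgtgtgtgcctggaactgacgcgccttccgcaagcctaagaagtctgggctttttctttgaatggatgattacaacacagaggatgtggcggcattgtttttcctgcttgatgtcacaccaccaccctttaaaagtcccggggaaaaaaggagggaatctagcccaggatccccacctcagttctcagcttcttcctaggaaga
Enpp1 (chr10:24712110-24712409, minus strand): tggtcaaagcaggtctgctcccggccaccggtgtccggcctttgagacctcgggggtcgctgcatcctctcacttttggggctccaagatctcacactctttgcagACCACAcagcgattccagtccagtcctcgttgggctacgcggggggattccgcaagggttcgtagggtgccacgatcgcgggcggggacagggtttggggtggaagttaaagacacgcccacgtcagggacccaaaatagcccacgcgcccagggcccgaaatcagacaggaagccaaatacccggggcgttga
Phex (chrX:157415237-157415536, minus strand): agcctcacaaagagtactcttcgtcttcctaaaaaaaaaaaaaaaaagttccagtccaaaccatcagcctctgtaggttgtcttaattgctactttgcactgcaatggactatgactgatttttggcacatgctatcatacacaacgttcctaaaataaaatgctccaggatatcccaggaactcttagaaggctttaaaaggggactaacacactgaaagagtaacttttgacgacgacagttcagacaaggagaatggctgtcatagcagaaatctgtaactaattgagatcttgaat

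The 8 promoters differed widely in base composition. The Phospho1 window held 42 CpG dinucleotides at 77% G and C, the Slc20a1 first window 36 at 73%, the Alpl first window 26 at 70% and the Enpp1 window 22 at 61.7%. The Fgf23 window held 6 at 49%, the inner Slc20a1 window 6 at 52%, the inner Alpl window 4 at 54.3% and the Phex window 4 at 38.7%, against a median of 7 at 52.7% over all 32851 promoters. Of all promoters with 16 or more CpG, 83.9% overlapped a region found in every library, and of those with 4 or fewer 4.59% did. The Phex and inner Alpl windows, both in the CpG-poor class, had no peak in any library, while the Alpl first window and Enpp1, both in the CpG-rich class, had a peak over the window in 5 libraries and in 1 library.

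RUNX letters, held by 16.8% of all promoters, lay in reverse 77 bases before the Slc20a1 first start and forward 144 before the Enpp1 start. The AP-1 letters (7.81% of promoters) lay at −224 in Phospho1, and CAGCTG (16.3%) at −176 in the Alpl first window and at −118 in the inner Slc20a1 window. TATAAA (13.6%) was found at −1 in the Slc20a1 first window and in reverse at −192 in the inner Alpl window, and CCAAT (37.4%) at −127 in Slc20a1 and in reverse at −40 in Phospho1. No window held the CRE letters (1.79%), and those of Fgf23 and Phex held none of these 6 motifs. The looser E-box CANNTG, which takes in CAGCTG and is not in capitals, is held by 72.3% of promoters.

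How many of the members' regions carried a peak was compared first. At the 7 genes together, f/f libraries had a peak in 35, 38 and 46 regions and KO libraries in 41, 41 and 17. The groups overlapped, and the lowest value was that of the short KO list and the highest that of f/f replicate 3, the longest list. The means were 39.7 ± 5.69 in f/f and 33 ± 13.9 in KO (SD, n = 3), and the difference, KO minus f/f, went from −6.67 to 1.33 without KO replicate 3. Of the 51 regions, 17 were found in every library and are called shared (33.3%, against 33.4% of all regions of the series), and 13 lacked one in KO replicate 3 alone (25.5%, against 19.2%). A further 5 regions had a peak in 1 library. In place, 32 regions overlapped a gene span, 6 lay before and 13 after the gene, and 13 also overlapped the span of another gene, so that they cannot be assigned to the member alone. The reference gives spans without exons, so regions inside a gene were not placed in exons or introns.

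**Figure D1:**
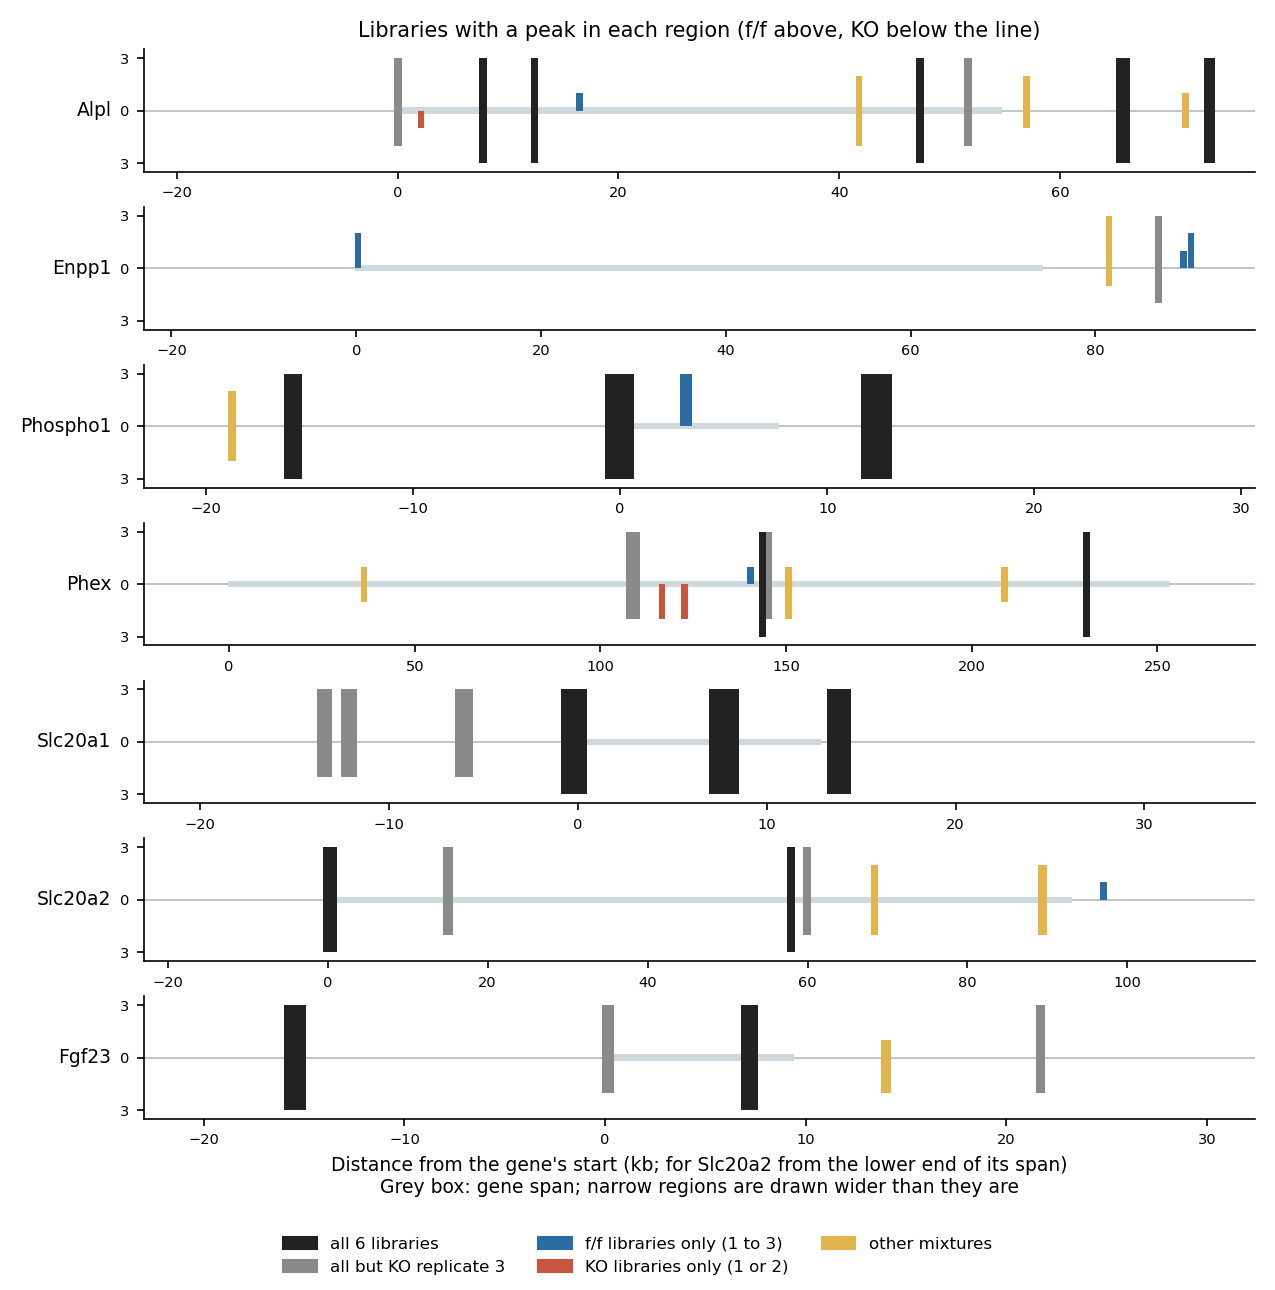
Number of libraries with a peak in each of the 51 regions, f/f upward and KO downward (0 to 3), against the distance from the gene's start in kb; colours give the pattern over the libraries and grey boxes the gene spans. The 17 regions in black were found in every library, and the start of Phex has no region while that of Enpp1 has peaks upward only.

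Group-specific regions were few at these genes. A single region, inside Phospho1, had a peak in 3 of 3 f/f and 0 of 3 KO libraries (1.96% of the 51, against 3.75% of all regions), and 0 had the opposite pattern (0.179% of all regions). With 2 or more f/f libraries and no KO library the count was 3 (5.88%, against 8.54%), which adds a pair of regions at Enpp1, and with 2 or more KO libraries and no f/f library it was 2 (3.92%, against 2.98%), both inside Phex. By gene, 1 of 7 had an f/f-only region within 20 kb, against 13.5% of protein-coding genes, and 6 of 7, that is all but Enpp1, had a region found in every library, against 72.0%. These counts lie near the shares of the whole series.

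**Figure D2:**
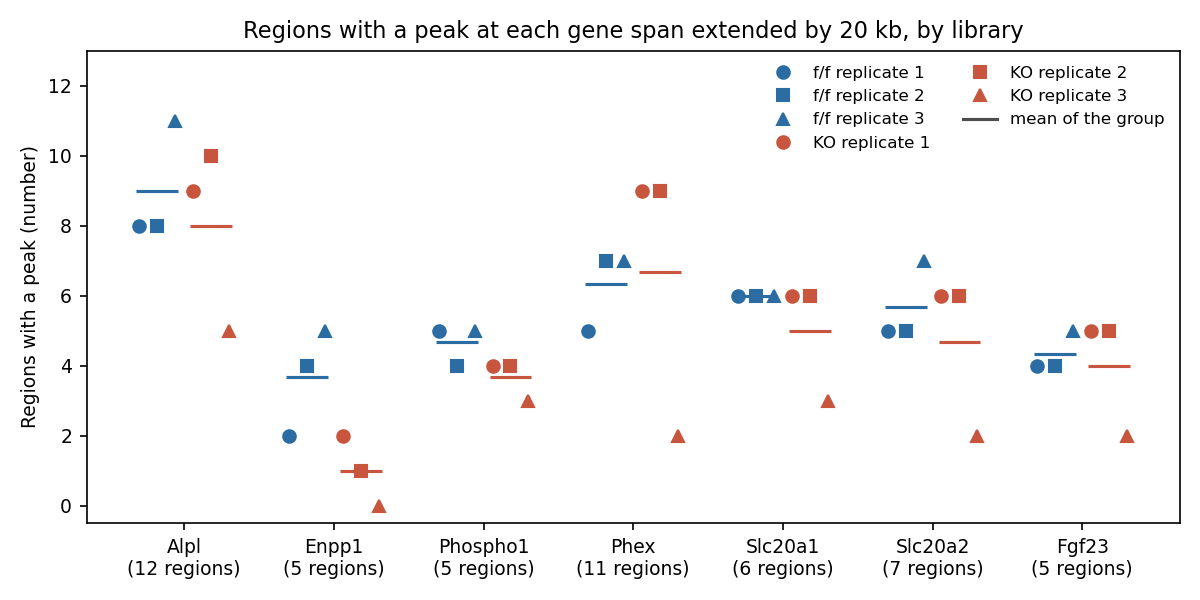
Number of regions with a peak at each gene (vertical axis) in each of the 6 libraries, with the mean of each group as a bar (n = 3). Enpp1 has 2, 4 and 5 regions in f/f against 2, 1 and 0 in KO, and the KO replicate 3 triangles are the lowest value at every gene.

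At start sites the members ranged from no peak to one of the strongest in a list. To compare libraries, each peak was given its standing, its percentile within its own list by the −log10 of the q-value of the peak caller, where 100 is the highest, and likewise by its fold over the local background. Of the 8 promoters, 3 overlapped a region found in every library (37.5%, against 38.3% of all promoters), 2 overlapped no region (25%, against 55.8%), and 1, that of Enpp1, overlapped a merged region with peaks in 2 f/f libraries and in no KO library (12.5%, against 0.712%). That share rests on a single promoter, whose own window was reached by the peak of f/f replicate 3 alone.

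**Figure D3:**
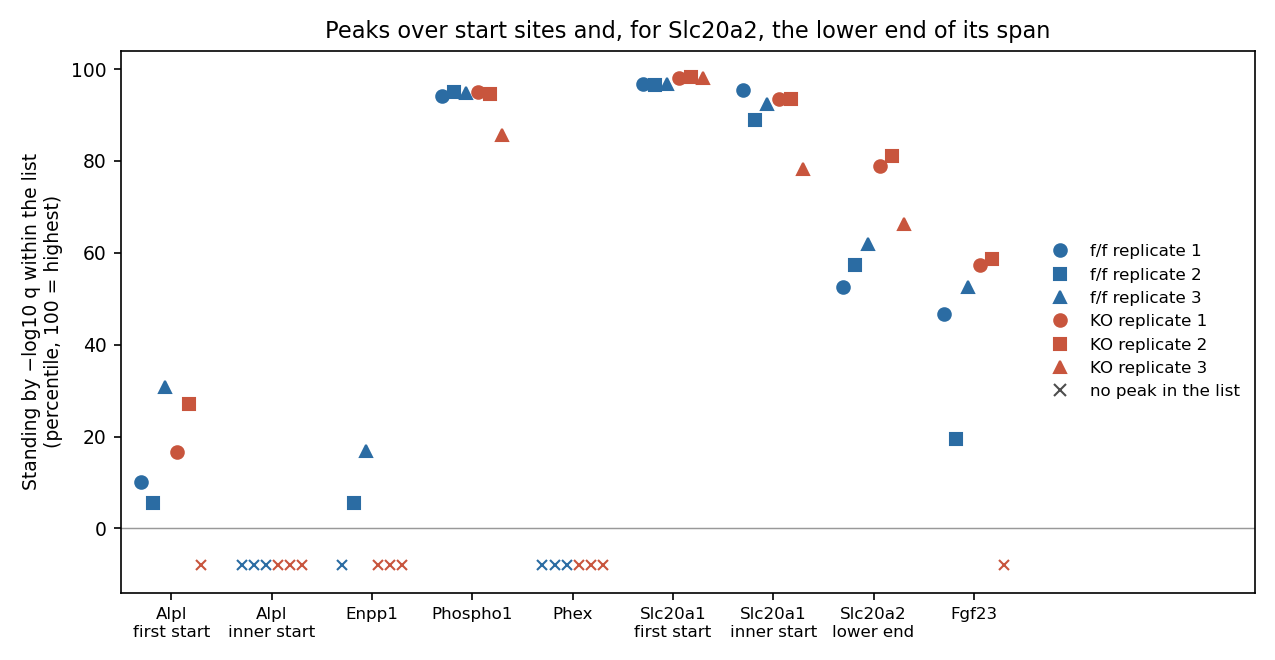
Standing by −log10 q (percentile within the list, vertical axis) of the region over each start site, and over the lower end of the span for Slc20a2, in the 6 libraries; crosses below 0 mark a library with no peak there. Phospho1 and Slc20a1 lie near the top of every list, and KO symbols lie above all f/f symbols at Slc20a2 and, by a small margin, at the first start of Slc20a1.

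Among the genes that set the balance of pyrophosphate, Alpl (chr4:137741731-137796384, minus strand) had 8, 8 and 11 of its 12 regions in f/f and 9, 10 and 5 in KO, and the groups overlapped (exact permutation test, two-sided, p = 0.8). At its first start (region chr4:137795972-137796726) the standings were 10.0, 5.62 and 30.7 in f/f and 16.6 and 27.0 in the first and second KO replicates, with no peak in KO replicate 3. The folds there were 3.88, 2.85 and 5.09 in f/f and 4.14 and 5.21 in KO, so that the start of this gene, an osteoblast marker, lay in the lower part of every list that had it. No library had a peak at the inner start.

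The strongest Alpl region lay not at a start but 10452 bp past the end of the gene (chr4:137729999-137731279), 138 bp from the span of Rap1gap. Its standings by −log10 q were 60.6, 58.4 and 69.2 in f/f and 60.3, 52.3 and 40.9 in KO, and the groups overlapped, while the standings by fold were all lower in KO. The folds themselves, 8.61, 6.12 and 8.29 in f/f and 7.85, 6.89 and 5.46 in KO, overlapped, as did ranks among shared regions only by both measures. Of the other 4 Alpl regions found in every library, 3 were inside the gene, 7390, 12096 and 46959 bp from the first start. The one at 46959 bp, described after its values were seen, had standings by fold of KO above those of f/f. Its folds, 7.53, 4.86 and 6.71 in f/f and 8.41, 8.48 and 6.05 in KO, overlapped between the groups, as did its standings by −log10 q. With ranks among shared regions only, all KO values there were higher by both measures.

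Enpp1 (chr10:24637914-24712159, minus strand), the producer of pyrophosphate, was the member with the fewest peaks in KO libraries. Its regions with a peak numbered 2, 4 and 5 in f/f and 2, 1 and 0 in KO, so that the groups met at 2. The mean was 3.67 ± 1.53 in f/f and 1 ± 1 in KO, a difference of −2.67 (exact permutation test, two-sided, n = 3 per group, p = 0.2, where 0.1 is the smallest p that 3 against 3 libraries allow) and of −2.17 without KO replicate 3. Enpp1 was the only one of the 7 genes with no region found in all 6 libraries.

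The region at the Enpp1 start (chr10:24711684-24712247) had a peak in f/f replicate 3, with a standing of 16.9, that covered the start site, and one in f/f replicate 2, with 5.62, that lay inside the gene 187 bp from it. Both peaks were weak, with folds of 3.82 and 2.85, and f/f replicate 1 had none, like the 3 KO libraries. The other 4 Enpp1 regions lay past its end, and the nearest other protein-coding gene to all of them was Ccn2, 22905 bp or more away. The region at chr10:24621588-24622015 also had peaks in f/f replicates 2 and 3 alone, with standings of 28.5 and 17.5. The strongest one (chr10:24624978-24625694) had standings of 63.5, 54.3 and 66.5 in f/f and 52.8 and 43.8 in KO replicates 1 and 2, which lay below all f/f values, and no peak in KO replicate 3. Its folds overlapped, at 9.60, 5.94 and 8.85 in f/f and 8.68 and 7.59 in KO.

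Phospho1 (chr11:95824500-95832140, plus strand) showed a strong start-site peak in every library. The region chr11:95823793-95825157 had standings of 94.2, 95.0 and 94.9 in f/f and 95.0, 94.6 and 85.6 in KO, so that only KO replicate 3 lay apart. The folds were 12.2, 10.4 and 10.8 in f/f and 15.0, 14.9 and 9.30 in KO, and overlapped. With ranks among shared regions only, all KO values were higher by fold, while those by −log10 q overlapped. The same region overlaps the predicted gene Gm38958. The number of Phospho1 regions with a peak was 5, 4 and 5 in f/f and 4, 4 and 3 in KO (exact permutation test, two-sided, p = 0.3).

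The f/f-only region of the members lay inside Phospho1, 2911 to 3459 bp after the start (chr11:95827411-95827959). Its standings by −log10 q were 31.0, 22.4 and 31.2, in the lower part of each f/f list, and no KO list held it. Its folds were 3.11, 2.33 and 2.54, with standings by fold of 5.57, 2.40 and 3.81, near the bottom of each f/f list. Upstream, 15334 bp before the gene and within Gm29933, a region described after its values were seen went the other way. Its standings were 36.4, 6.28 and 25.7 in f/f and 50.4, 50.2 and 35.4 in KO, and these overlapped. With ranks among shared regions only, all KO values there were higher, by −log10 q and by fold. The region 3987 bp past the gene, inside Abi3, had standings of 59.1, 57.3 and 69.6 in f/f and 55.5, 64.0 and 27.7 in KO. These overlapped, as did its ranks among shared regions only.

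Both phosphate carriers had a region at 1 end of the gene where every KO library stood higher than every f/f library. Slc20a1 (chr2:129198773-129211615, plus strand; PiT-1) had all 6 of its regions in every library except KO replicate 3, which had 3 (exact permutation test, two-sided, p = 1). At its first start (chr2:129197882-129199251) the standings by −log10 q were 96.7, 96.5 and 96.7 in f/f and 98.2, 98.3 and 98.2 in KO. All 3 KO values lay above all f/f values, by a mean of 1.60 percentiles. By fold the gap was wider, with folds of 11.0, 9.13 and 9.77 in f/f and 13.4, 13.8 and 12.2 in KO, and mean standings that differed by 11.4. By −log10 q, KO replicate 3 lay with the other KO libraries although its list was the shortest, and the difference without it was 1.63. The standings by fold were 78.1, 80.9 and 75.8 in f/f and 85.3, 86.2 and 97.4 in KO. By that measure KO replicate 3 was the highest library, and the difference of 11.4 rests partly on it.

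The region over the inner Slc20a1 start (chr2:129205723-129207311) did not separate the groups, with standings of 95.6, 89.0 and 92.4 in f/f and 93.6, 93.5 and 78.2 in KO. Past the end of the gene, by 371 bp, the region chr2:129211986-129213213 had lower standings in KO, 69.0, 72.4 and 61.8, than in f/f, 81.1, 78.9 and 82.3. The difference was −13.0, and −10.1 without KO replicate 3. Standings by fold were also lower, by 4.67 on average, but the folds themselves overlapped, at 9.27, 7.51 and 8.62 in f/f and 8.29, 9.65 and 7.0 in KO. When ranks were taken only within the 29849 shared regions, those found in every library, the groups overlapped. Those ranks differed by −12.5 by −log10 q and by 0.926 by fold. By standing within the whole list, the first start and the end of this short gene had differences of opposite sign.

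Slc20a2 (chr8:22476700-22569616; PiT-2) had 5, 5 and 7 of its 7 regions in f/f and 6, 6 and 2 in KO (exact permutation test, two-sided, p = 0.8). Over the lower end of its span, chr8:22476090-22477831, the standings by −log10 q were 52.6, 57.3 and 62.0 in f/f and 78.8, 81.2 and 66.3 in KO. All KO values lay above all f/f values, by 18.2 on average and by 22.8 without KO replicate 3. The folds were 7.08, 6.23 and 7.31 in f/f and 12.2, 12.7 and 8.56 in KO, and the standings by fold 51.0, 58.3 and 58.7 against 80.6, 81.8 and 78.6, a mean difference of 24.3. Among the members' shared regions whose groups did not overlap, this was the largest difference in standing by either measure, and with ranks among shared regions only it was 40.4 by −log10 q. The annotation gives no start site for Slc20a2, and the region also overlaps Smim19, so its peak cannot be assigned to one of the pair.

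Of the remaining Slc20a2 regions, 1 more had a peak in every library. It lay 57476 bp into the span (chr8:22534176-22535116) and had standings of 40.2, 53.6 and 50.8 in f/f and 39.0, 47.3 and 2.23 in KO, a mean difference of −18.7 that came to −5.04 without KO replicate 3. These overlapped, but with ranks among shared regions only all KO values were lower, by −log10 q and by fold. A region 14427 bp into the span, chosen after its values were seen, had high standings of 59.1, 60.7 and 70.4 in f/f and 59.3 and 54.8 in KO and no peak in KO replicate 3. The region chr8:22536170-22537124, chosen in the same way, had 30.3, 38.2 and 47.1 in f/f and 15.5 and 14.9 in KO replicates 1 and 2, both below all f/f values, with folds of 5.15, 4.74 and 6.18 against 3.75 and 3.47, and KO replicate 3 had no peak there. Another, chr8:22544702-22545386, also chosen after its values were seen, had 35.7 and 29.3 in f/f replicates 1 and 3 and 27.1 and 18.6 in KO replicates 1 and 2.

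Of the hormone axis, Fgf23 (chr6:127072902-127082296, plus strand) had peaks over its start in 5 libraries although the gene is best known from osteocytes. The region chr6:127072735-127073345 had standings of 46.7, 19.5 and 52.6 in f/f and 57.3 and 58.7 in KO replicates 1 and 2, with no peak in KO replicate 3. In the 5 lists that held it the summit lay between 119 and 121 bp after the start site. The folds were 8.24, 3.71 and 8.35 in f/f and 10.4 and 11.0 in KO, so that the KO libraries with a peak lay above all f/f libraries. Fgf23 had 4, 4 and 5 of its 5 regions in f/f and 5, 5 and 2 in KO (exact permutation test, two-sided, p = 1).

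The strongest Fgf23 region lay inside the gene, 6760 to 7646 bp after the start (chr6:127079662-127080548), with 81.6, 82.3 and 87.0 in f/f and 82.0, 79.9 and 70.9 in KO, and the groups overlapped. A distal region, 14906 bp before the gene (chr6:127056886-127057996), had lower standings in KO, 73.0, 78.4 and 44.8, than in f/f, 83.1, 81.4 and 83.8. The difference was −17.4 by −log10 q and −7.08 without KO replicate 3, and it held the same direction by fold and with ranks among shared regions only (−16.2). The folds themselves overlapped, at 13.4, 10.6 and 12.5 in f/f and 12.5, 14.1 and 5.61 in KO. In KO replicates 1 and 2 the distal standings were thus below all f/f values and those at the start above them. KO replicate 3, the lowest library at the distal region, had no peak at the start.

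Phex (chrX:157162075-157415286, minus strand), the longest of the 7 genes, had no region at its start in any library, and all 11 of its regions lay inside the gene, the nearest 36189 bp from the start. Regions with a peak numbered 5, 7 and 7 in f/f and 9, 9 and 2 in KO (exact permutation test, two-sided, p = 1), so that KO replicates 1 and 2 were above and KO replicate 3 below every f/f library. The difference in means was 0.333, and 2.67 without KO replicate 3. Both regions with a peak in 2 KO libraries and no f/f library were at Phex. The one at chrX:157292371-157292718 had standings of 27.1 and 5.68, and the one at chrX:157298490-157298921 had 14.7 and 10.6, all low in their lists.

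The strongest Phex region, 230378 bp from the start (chrX:157184058-157184908), had 60.4, 69.3 and 69.9 in f/f and 68.1, 72.6 and 57.8 in KO and did not separate the groups. The region chrX:157271124-157271983, in the middle of the gene, had 68.7, 61.6 and 63.8 in f/f and 56.1, 55.6 and 32.2 in KO. All KO values were lower, by 16.7 on average and by 8.78 without KO replicate 3. By fold and with ranks among shared regions only, the groups overlapped.

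Over the 17 shared regions of the members, the median standing by −log10 q was 60.4, 58.4 and 69.2 in f/f and 61.9, 64.0 and 44.8 in KO. By fold the medians were 62.8, 58.3 and 66.0 in f/f and 59.4, 62.9 and 50.2 in KO. The groups overlapped in both, and only KO replicate 3 lay below the rest. The differences in means were −5.80 and −4.84, and over the same regions without KO replicate 3 they were 0.248 and −1.20. Over all 29849 shared regions of the series the medians by −log10 q lay between 75.9 and 79.7 in the other 5 libraries and at 54.4 in KO replicate 3, so that the members' regions stood lower than the typical shared region in every library.

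By −log10 q, all KO values were below all f/f values in 3 of the 17 regions (17.6%, against 25.5% of all shared regions) and above them in 2 (11.8%, against 3.62%). The 3 lie at Phex, Slc20a1 and Fgf23, and the 2 are the start region of Slc20a1 and the end region of Slc20a2. By fold, KO was lower in 3 (17.6%, against 16.7%) and higher in 3 (17.6%, against 9.22%). With ranks among shared regions only, by −log10 q, 3 were lower and 4 higher, against 20.9% and 21.1% of all shared regions, and by fold 2 were lower and 5 higher, against 13.9% and 15.5%. Under each of these scales the Slc20a1 and Slc20a2 regions were among those with higher KO values. The Alpl region at 46959 bp was also among them by fold and with ranks among shared regions only. With those ranks the region upstream of Phospho1 was among them by both measures, and the Phospho1 start region by fold. No test was made of these counts, and the part of the short KO replicate 3 list in the standings was not tested beyond the values given without it.

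**Figure D4:**
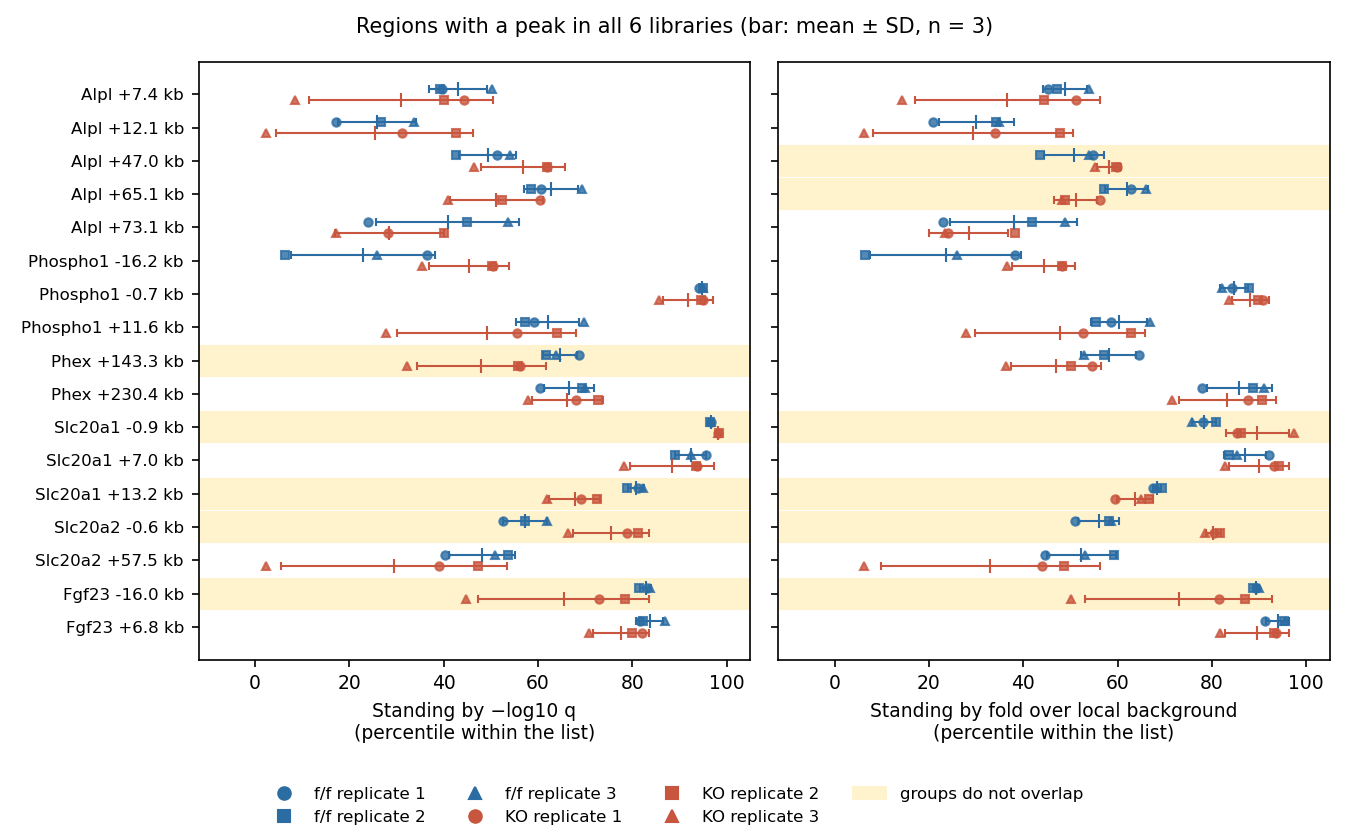
Standing of each of the 17 shared regions of the members by −log10 q (left) and by fold (right), named by gene and distance in kb of its upstream edge from the gene's start (for Slc20a2 the lower end of its span); symbols are libraries, bars are mean ± SD (n = 3), and shading marks groups that do not overlap. The region at the lower end of Slc20a2 lies higher in KO in both panels, and that before Fgf23 lower.

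A wider list of 22 genes of mineralization and phosphate handling, named for their roles with earlier results known, held 163 regions. Of these, 69 were shared by all 6 libraries (42.3%, against 33.4% of all regions), 3 were f/f-only (1.84%, against 3.75%) and 0 KO-only (0.179% of all regions). The f/f-only regions lay near Ahsg, which codes for a serum inhibitor of mineral growth (inside Dnajb11), near Slc34a1, a renal phosphate carrier, and near Cyp27b1, which activates vitamin D (inside Marchf9). By −log10 q, KO was lower without overlap in 17 of the 69 (24.6%, against 25.5% of shared regions) and higher in 1 (1.45%, against 3.62%), at Ank, the gene of a pyrophosphate exporter.

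Other genes had the same or like counts over the libraries. Among protein-coding genes with a like number of regions, Slc20a1 shared its exact shares of 6, 6 and 6 against 6, 6 and 3 with 18 of 1860 genes, Phospho1 with 15 of 2146 and Fgf23 with 7 of 2146. The nearest patterns to Alpl were those of Cers6 and Clic1, and to Phex those of Plac1 and Lrp6. The nearest to Enpp1, E130308A19Rik and Tmem191c, had 2, 4 and 5 regions in f/f and 2, 2 and 1 in KO.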

How the data were processed

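ATAC-seq peak lists of 6 libraries were analysed, 3 per genotype as their labels give it; RNA-seq and proteomics of the study were not analysed here. The authors aligned reads to mm10 with BWA and called peaks per library by MACS2 2.1.2, keeping q-values up to 0.05. Each deposited list gives a browser score, the fold of the summit over local background (a linear ratio), and the −log10 p-value and −log10 q-value, as the authors' caller wrote them; the score and −log10 p were not used. How duplicate reads were treated is not given in the sources used here. The study's comparison of reads in peaks was not repeated, because it needs counts, so presence of a peak and its rank within a list stand in for it, and a change in height that leaves the rank alone is missed.

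Peaks were merged at 1 bp of overlap. Gene spans, start sites and promoters came from RefSeq (GRCm38.p6, the coordinates of mm10). A region with several peaks of a library took the one with the highest −log10 q. Single values were compared by exact two-sided permutation tests over the 20 assignments of 3 of 6 libraries; 7 genes were tested, and at n = 3 no p can fall below 0.1, so a p of 0.05 was out of reach. Regions named were those over start sites, the highest in standing elsewhere (among shared regions where a gene had one), group-specific regions, those with a peak in 2 or more libraries of a group and 0 of the other, and per gene the largest non-overlapping fall and rise; any other region described is marked as picked with its values known. The members, lists and tests were chosen with earlier results of these data known. Scripts ran in Python 3.11.15 with numpy 2.4.6, pandas 2.3.3 and scipy 1.17.1, and were tested on simulated lists. Alternatives changed the peaks entered, the merging, the windows, the ranks and the libraries.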

Additional observations from a re-analysis of the deposited data

How the results depend on the processing

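All comparisons rest on presence and rank, so weak peaks near the threshold of the caller limit them, and a missing peak in KO replicate 3 cannot be told apart from that list's shortness. Of 330 differences recomputed under an alternative, 42 had the opposite sign to the value reported.

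The difference of −6.67 in regions with a peak turned to 0.667 with lists shortened to equal numbers of peaks (24 regions left) and ranged from −10.7 to 1.33 with 1 library left out, the positive value being that without KO replicate 3. The median standing by −log10 q (−5.80) turned to 4.25 in gene spans alone and to 4.62 with ranks among shared regions only, and ranged from −9.36 to −1.38 with 1 library left out, where −1.38 is without KO replicate 3 and over the 30 regions then shared (0.248 over the same 17). By fold (−4.84) it turned to 7.67 with peaks of −log10 q 5 or more, 14.3 with the same number of peaks, 17.2 in gene spans alone and 1.79 with ranks among shared regions; all KO medians were then above all f/f medians with the same number of peaks and in gene spans alone, and below them (−7.29) in regions that overlap no other gene. The f/f-only count of 1 became 0 with the same number of peaks, 3 within 50 kb and 3 with 2 of 3 libraries, and 1 to 3 with 1 library left out (3 without f/f replicate 1, 2 without KO replicate 1); the KO-only count of 0 became 1, at Phospho1, with the same number of peaks, 2 with 2 of 3 libraries and 0 to 2 with 1 left out, the 2 being without KO replicate 3.

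By gene, the same number of peaks turned the differences in regions to 1.67 at Alpl, 1 at Phospho1, −0.667 at Phex and 0.667 at Fgf23, and the median standing at Phex to 3.66; ranks among shared regions turned the latter to 1.92. With 1 library left out, differences in regions ranged from −2 to 0.5 at Alpl, −0.833 to 2.67 at Phex, −1.67 to 0.333 at Slc20a2 and −0.833 to 0.667 at Fgf23, and medians from −15.5 to 5.87 by −log10 q and −14.9 to 8.35 by fold at Fgf23 and −4.99 to 7.79 by fold at Slc20a1. The medians of the other sign were those without KO replicate 3, where 4 regions in place of 2 at Fgf23 and 6 in place of 3 at Slc20a1 were shared; over the same regions they were −4.88 and −2.81 at Fgf23 and 7.50 at Slc20a1. The differences at the Slc20a1 first start (1.51 to 1.65), the Slc20a2 end region (15.3 to 22.8) and the distal Fgf23 region (−23.9 to −7.08) kept their sign and their separation of the groups with any library left out, with peaks of −log10 q 5 or more and with equal numbers of peaks. With equal numbers of peaks, the groups overlapped at the lower regions of Phex and Slc20a1.

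Same-numbered libraries did not deviate together (correlations of −0.0857, −0.214 and −0.379 over shared regions). Such correlations do not show how libraries were handled, and the labels do not say whether the numbers pair them. With the replicate block the differences stayed at −6.67, −5.80 and −4.84, the smallest p that 3 pairs allow is 0.25, and no call changed.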
